A study of Mus musculus with 12 samples.

Results

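The Sox genes of groups B, E and F were examined for H3K27me3, the trimethylation of lysine 27 of histone H3, in mouse fibroblasts with and without the methyltransferase Ezh2. They were chosen by name as 10 genes: Sox1 and Sox2 (group B1), Sox14 and Sox21 (group B2), Sox8, Sox9 and Sox10 (group E), and Sox7, Sox17 and Sox18 (group F). The mouse annotation used (GENCODE M1, build mm9) holds 9 of them among its 22367 protein-coding genes. It has no gene named Sox1, whose start was placed by the single exact match of its RefSeq promoter sequence in mm9, at chr8:12395519, inside the gene model Gm5607. Counts are over the 9 annotated genes unless Sox1 is named.

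Sox proteins are transcription factors that bind DNA through an HMG box and act with partner factors. Group B1 proteins maintain neural progenitors, and Sox2 also sustains pluripotent cells, whereas the group B2 proteins Sox14 and Sox21 act mainly as repressors in the nervous system. Group E genes direct the neural crest and its glial derivatives, cartilage and the testis, and group F genes the endoderm and the blood and lymphatic vessels. H3K27me3 is laid down by PRC2, whose catalytic subunit is Ezh2 or its paralog Ezh1, and marks genes for developmental regulators in cells where they are silent. No RNA was measured here, so the lists show where the mark was called and not whether a gene was expressed.

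All libraries came from C2, a single clone of immortalized embryonic fibroblasts (iMEFs) transformed with a c-MYC retrovirus, in which 4-hydroxytamoxifen activates CreERT2 to delete floxed Ezh2. The labels name these cells Ezh2 -/- after deletion and Ezh2 WT/WT without it, although the methods describe a clone with 1 floxed and 1 deleted copy. Experiment 1 had 2 Ezh2 knockout and 2 wild-type libraries, made with an Active Motif antibody and read on a SOLiD sequencer. Experiment 2 had 1 Ezh1 rescue, 1 Ezh2 rescue, 2 Ezh2 knockout and 2 wild-type libraries, made with antibody clone 7b11 and read on a HiSeq. In the rescues, Ezh1 or Ezh2 was expressed from a retrovirus before the endogenous Ezh2 was deleted (the pre-rescue condition of the labels).

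The deposited lists give the position of each peak with no height, and the read depth under each peak is unknown. In experiment 1 peaks covered 24.3 and 56.7 Mb in the knockout libraries, against 141 and 177 Mb in the wild-type libraries. In experiment 2 they covered 256 Mb in Ezh1-rescued iMEFs, 80.6 Mb in Ezh2-rescued iMEFs, 0.0589 and 0.481 Mb in the knockout, and 14.9 and 11.3 Mb in the wild type. Of 12 fibroblast marker genes, among them Col1a1 and Fn1, 0 had a promoter peak in both wild-type libraries of experiment 1, against 4 of 4 blood, 2 of 4 neural, 1 of 4 endothelial and 1 of 4 epithelial markers. Such a peak was found at 20.1% of all protein-coding promoters. Vim alone of the fibroblast genes had knockout peaks, of 1698 and 1275 bp.

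The measure was the number of bp under peaks in the promoter (2500 bp on either side of the transcription start site (TSS), 5001 bp) and in the gene span (the gene body with 5 kb on either side). The mark was called lost where both knockout libraries had fewer bp under peaks than both wild-type libraries. With 2 libraries against 2, the exact permutation test has a smallest two-sided p of 0.33, so no difference could pass a threshold, and each is given by its values. Nothing in the labels says whether the replicates were separate cultures. The paper describes the replicates behind its plots of the mark around gene starts as biological. It does not say how they were grown, so the technical part of their spread is unknown.

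The 250 bases before the start are shown for 6 of these genes, because the genes differed in whether wild-type peaks reached them and in their content of CpG, the dinucleotide that is dense in the promoters of many developmental regulators. Each is read from mm9, 5′ to 3′ on the strand of the gene, with every CpG in capitals. Sox1 (chr8:12395269-12395518, plus strand, by sequence match) and Sox7 (chr14:64562261-64562510, plus strand) had wild-type peaks on both sides of the start and none over these bases in experiment 1.
Sox1: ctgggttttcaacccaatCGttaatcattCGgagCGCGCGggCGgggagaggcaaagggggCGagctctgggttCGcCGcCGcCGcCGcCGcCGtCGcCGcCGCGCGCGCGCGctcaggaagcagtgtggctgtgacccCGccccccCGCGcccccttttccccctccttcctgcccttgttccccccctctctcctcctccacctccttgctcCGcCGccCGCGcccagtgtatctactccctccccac
Sox7: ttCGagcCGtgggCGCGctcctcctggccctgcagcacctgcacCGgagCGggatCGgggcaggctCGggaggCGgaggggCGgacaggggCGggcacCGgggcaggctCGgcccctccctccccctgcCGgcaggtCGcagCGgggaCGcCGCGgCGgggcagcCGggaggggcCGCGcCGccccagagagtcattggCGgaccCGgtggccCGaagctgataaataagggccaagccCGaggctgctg
Sox2 (chr3:34548677-34548926, plus strand) and Sox9 (chr11:112643288-112643537, plus strand) had no promoter peak in experiment 1.
Sox2: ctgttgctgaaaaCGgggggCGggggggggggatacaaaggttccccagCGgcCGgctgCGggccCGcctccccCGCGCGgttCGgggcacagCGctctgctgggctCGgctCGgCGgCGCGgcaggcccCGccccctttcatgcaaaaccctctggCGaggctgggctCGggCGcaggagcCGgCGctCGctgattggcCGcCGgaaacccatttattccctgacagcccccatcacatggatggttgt
Sox9: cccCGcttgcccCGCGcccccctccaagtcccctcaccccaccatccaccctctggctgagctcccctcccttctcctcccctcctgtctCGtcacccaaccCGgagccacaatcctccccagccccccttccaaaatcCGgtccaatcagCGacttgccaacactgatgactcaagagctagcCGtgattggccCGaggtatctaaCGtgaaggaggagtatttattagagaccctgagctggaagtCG
Sox17 (chr1:4486495-4486744, minus strand) and Sox18 (chr2:181406346-181406595, minus strand) had wild-type peaks over all 250 bases in both libraries of experiment 1.
Sox17: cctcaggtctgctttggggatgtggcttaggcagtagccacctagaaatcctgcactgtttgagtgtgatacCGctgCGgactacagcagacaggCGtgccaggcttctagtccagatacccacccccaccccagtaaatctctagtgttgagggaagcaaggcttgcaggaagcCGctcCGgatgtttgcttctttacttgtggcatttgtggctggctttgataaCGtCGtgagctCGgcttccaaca
Sox18: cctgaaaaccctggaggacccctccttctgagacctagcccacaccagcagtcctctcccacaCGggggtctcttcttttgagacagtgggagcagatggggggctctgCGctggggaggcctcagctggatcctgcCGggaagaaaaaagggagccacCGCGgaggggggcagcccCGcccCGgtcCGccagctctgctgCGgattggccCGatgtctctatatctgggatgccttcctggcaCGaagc

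These stretches held 29 CpG at Sox1, 28 at Sox7, 25 at Sox2, 11 at Sox9, 8 at Sox17 and 11 at Sox18. The other members had 18 at Sox8, 17 at Sox21, 16 at Sox14 and 6 at Sox10. The median of all protein-coding genes was 8. At least as many CpG as at Sox1 were found in 7.42% of genes, and at least as many as at Sox10 in 59.5%. Sox9 and Sox18 had the same number, but Sox18 was covered by wild-type peaks there and Sox9 was not.

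Experiment 1 asked where the mark depended on Ezh2. It was lost from the promoters of 7 of the 9 annotated genes: Sox14, Sox21, Sox8, Sox10, Sox7, Sox17 and Sox18. By the same call it was lost from 19.6% of all protein-coding promoters. Sox1 also met it, which makes 8 of 10. The exceptions were Sox2 and Sox9, which had no promoter peak in any of the 4 libraries. By group, the call was met by 1 of 2 genes of B1, 2 of 2 of B2, 2 of 3 of E and 3 of 3 of F. A promoter peak in both wild-type libraries was found at the same 8 genes and at 20.1% of all promoters. No promoter among the 10 had more bp under peaks in both knockout than in both wild-type libraries, against 3.76% of all promoters.

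**Figure D1:**
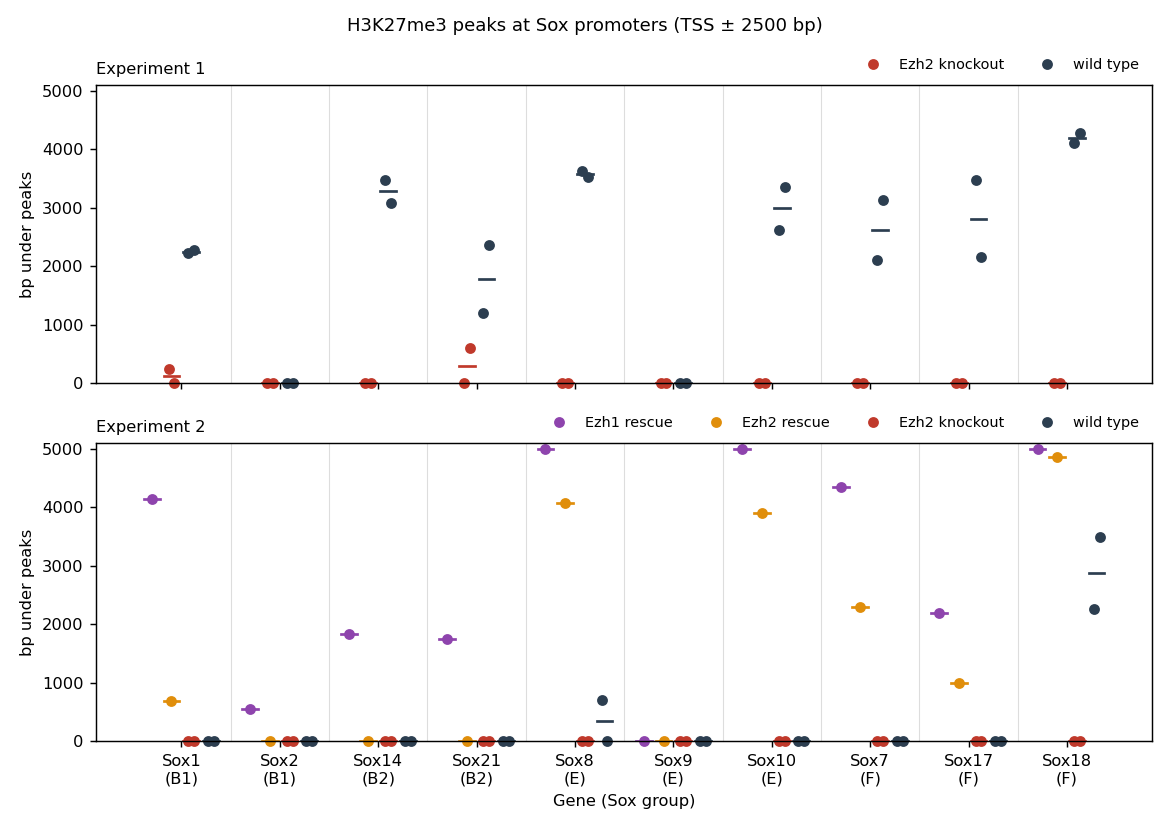
Base pairs under H3K27me3 peaks within 2500 bp of the start (y axis, bp of 5001) for the 10 Sox genes (x axis, Sox group in brackets). Each point is 1 library and each bar the group mean, with experiment 1 above and experiment 2 below. In experiment 1 the knockout points lie below the wild-type points at every gene but Sox2 and Sox9, and in experiment 2 Ezh1-rescued iMEFs reach 5001 bp at Sox8, Sox10 and Sox18.

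In group B, the promoter of Sox1, a neural progenitor factor, had 242 and 0 bp under peaks in knockout libraries, against 2226 and 2281 bp in wild-type libraries. Sox14 (chr9:99774644-99776663), expressed in interneurons, had 0 and 0 bp in the knockout and 3473 and 3092 bp in the wild type. Sox21, a partner and antagonist of the B1 factors, had 0 and 603 bp in the knockout and 1204 and 2365 bp in the wild type. Sox21 thus had the lowest mean wild-type cover of the 8 marked genes. The groups did not overlap at any of the 3 genes. Sox2 (chr3:34548927-34551383) was at 0 in all 4 libraries, and its nearest wild-type peak lay 152094 bp from the start in replicate 1. In replicate 2 there was none within 200 kb.

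In group E, the promoter of Sox8, expressed in glia and testis, had 0 and 0 bp under peaks in the knockout and 3636 and 3530 bp in the wild type. Sox10 (chr15:78985343-78994920), a neural crest and glial regulator, had 0 and 0 bp in the knockout and 2624 and 3360 bp in the wild type. Sox9 (chr11:112643538-112649074), which directs cartilage and testis formation, was at 0 in all 4 libraries. Its nearest wild-type peaks began 13313 and 15344 bp from its start. The processed transcript Gm11681, which starts 16784 bp away, had 0 and 0 bp at its promoter in the knockout and 3229 and 1988 bp in the wild type. Sox9 therefore stood apart from the other members of its group, as Sox2 did from Sox1.

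In group F all promoters were marked in the wild type. Sox18 (chr2:181404541-181406345), an endothelial and lymphatic regulator, had 0 and 0 bp in the knockout and 4106 and 4282 bp in the wild type, the widest promoter cover of the 10. Sox17, a regulator of endoderm and arterial endothelium, had 0 and 0 bp in the knockout and 3476 and 2157 bp in the wild type. Sox7 (chr14:64562511-64569569), expressed in endoderm and endothelium, had 0 and 0 bp in the knockout and 2111 and 3132 bp in the wild type. The wild-type libraries differed more at Sox17 and Sox7 than at Sox18.

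Ordered by mean, wild-type cover was 4194 ± 124 bp at Sox18, 3583 ± 75.0 at Sox8, 3282.5 ± 269 at Sox14 and 2992 ± 520 at Sox10 (SD, n = 2). It was 2816.5 ± 933 bp at Sox17, 2621.5 ± 722 at Sox7, 2253.5 ± 38.9 at Sox1 and 1784.5 ± 821 at Sox21 (SD, n = 2). The libraries of Sox18 lay above those of every other member, as did those of Sox8 above the rest, whereas neighbours from Sox14 down overlapped in their values. The 8 marked genes had median cover of 3048.5 and 3112 bp in the wild-type libraries, against 2226 and 2622.5 bp over the 4506 promoters marked in both.

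Over the gene span the same 7 of 9 genes were called lost, against 29.7% of all genes and 28.7% of genes with a span in the same length range. Sox8, which lies on chr17 at 25702837-25707631, had 0% of its span under peaks in both knockout libraries and 90.8% and 90.1% in wild-type libraries. The cover was lower at Sox17 (chr1:4481009-4486494), with 0% in both knockout libraries and 22.4% and 23.4% in wild-type libraries. Sox14, Sox21, Sox10, Sox7 and Sox18 lay between these, at 43.5% to 71.1% in single wild-type libraries. The span of Sox21 (chr14:118632454-118636252) alone kept knockout peaks in both libraries, over 3.88% and 11%, against 54.6% and 66.7% in the wild type. Of all genes, 12.5% had a span peak in both knockout libraries.

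**Figure D2:**
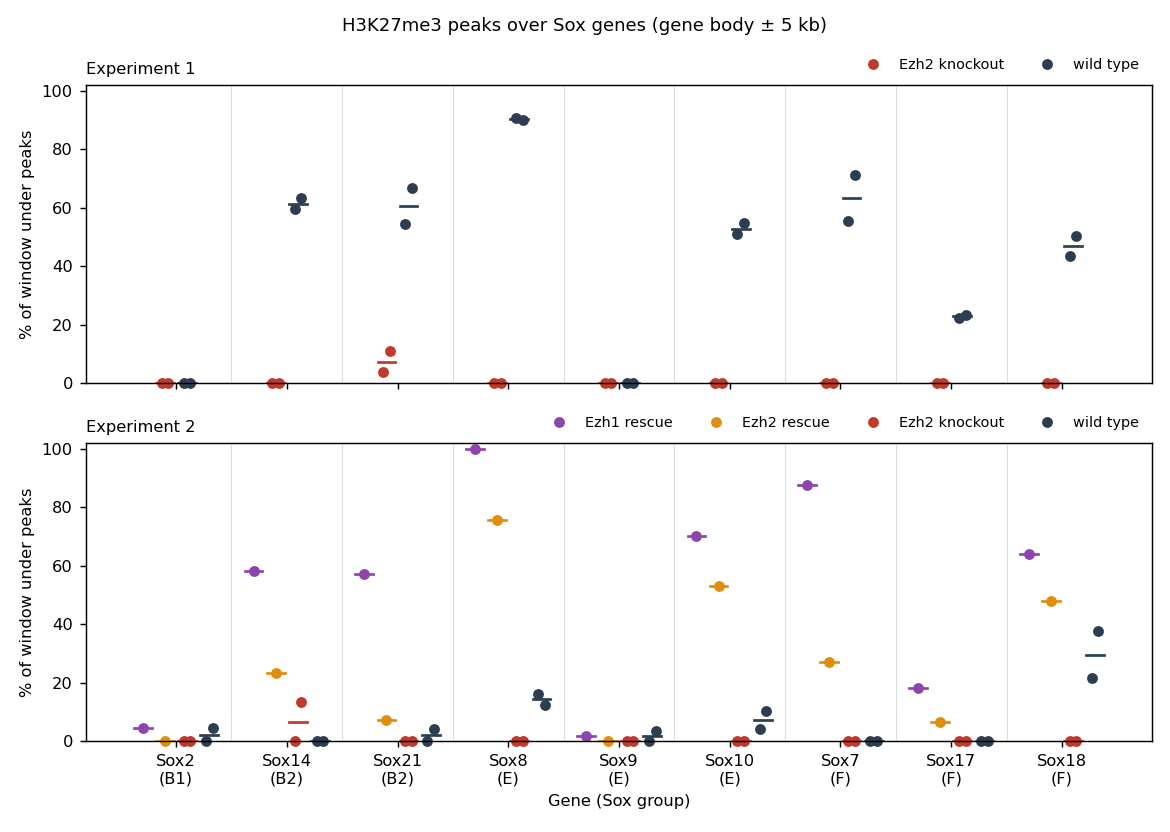
Share of the gene span, the gene body with 5 kb on either side, under H3K27me3 peaks (y axis, %) for the 9 annotated Sox genes (x axis). Each point is 1 library and each bar the group mean. Sox8 has the highest wild-type share of experiment 1, at 90.8% and 90.1%, and Sox2 and Sox9 stay at 0% in experiment 1.

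Some of these windows hold a neighbouring gene, whose bp cannot be told apart from those of the Sox gene. The lincRNA 2810468N07Rik starts 230 bp from Sox8, the lincRNA Gm4675 798 bp from Sox21, and Gm10863 1551 bp from Sox10. The lincRNA BC006965 starts 248 bp from Sox9, and its promoter was at 0 bp in all 10 libraries. Sox2 lies within the long noncoding RNA gene Sox2ot, whose own start is 545567 bp away. The Sox2ot promoter had 0 and 0 bp in knockout libraries and 3685 and 3853 bp in wild-type libraries of experiment 1, unlike Sox2 itself.

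At most marked members the wild-type peaks flanked the start and left a gap over it. The start itself was under a peak at 2 of the 8 marked members in wild-type replicate 1 (Sox17 and Sox18) and at 3 in replicate 2 (also Sox10). Among all genes with a promoter peak, the start was covered at 24.7% and 29.8%. Over the 250 bases shown above, Sox17 and Sox18 were covered in full in both wild-type libraries. Sox10 had 61 and 250 bases covered, Sox14 84 and 0, and Sox21 0 and 47. Sox1, Sox8 and Sox7 had 0 in both. The uncovered stretches at Sox1, Sox8 and Sox7 held 18 to 29 CpG, and the covered ones at Sox17 and Sox18 held 8 and 11.

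The same order was seen across the genome. Of the marked promoters with 20 or more CpG in these 250 bases (n = 869), 82.9% had no cover there in either wild-type library. The share was 57.5% with 10 to 19 CpG (n = 1100) and 34.9% with 9 or fewer (n = 2536). In Ezh1-rescued iMEFs the shares without cover were 42.6%, 39.5% and 27.5% of the same promoters. The part of the recovery of GC-rich DNA in this was not tested.

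Within each promoter window, bases outside the wild-type peaks held more CpG than bases under them at all 8 marked members in both libraries of experiment 1. At Sox1 the density was 22.9 CpG per kb under peaks and 107 outside in replicate 1, and 23.7 and 108 in replicate 2. At Sox21 it was 13.3 under peaks and 75.6 outside in replicate 1, and 14.0 and 102 in replicate 2. The smallest difference was at Sox7 in replicate 1, with 29.4 under peaks and 41.2 outside, and at Sox17 in replicate 2, with 18.5 under peaks and 24.3 outside. Outside bases held more CpG at 79.5% and 78.8% of all genes with 500 to 4501 bp covered, so the members shared a pattern of most marked promoters. GC content was higher outside as well, except at Sox17 in replicate 2, with 45.4% under peaks and 44.3% outside. In the rescues the CpG order was less general, at 62.6% (Ezh1) and 63.9% (Ezh2) of such genes. It was turned in Ezh2-rescued iMEFs at Sox17 (41 under peaks, 17.0 outside) and Sox18 (36.7 and 6.90, with 4856 bp covered), but not at Sox1, Sox8, Sox10 or Sox7. In Ezh1-rescued iMEFs it was turned at Sox2 (61.8 and 53.9), but not at Sox1, Sox14, Sox21, Sox7 or Sox17.

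**Figure D3:**
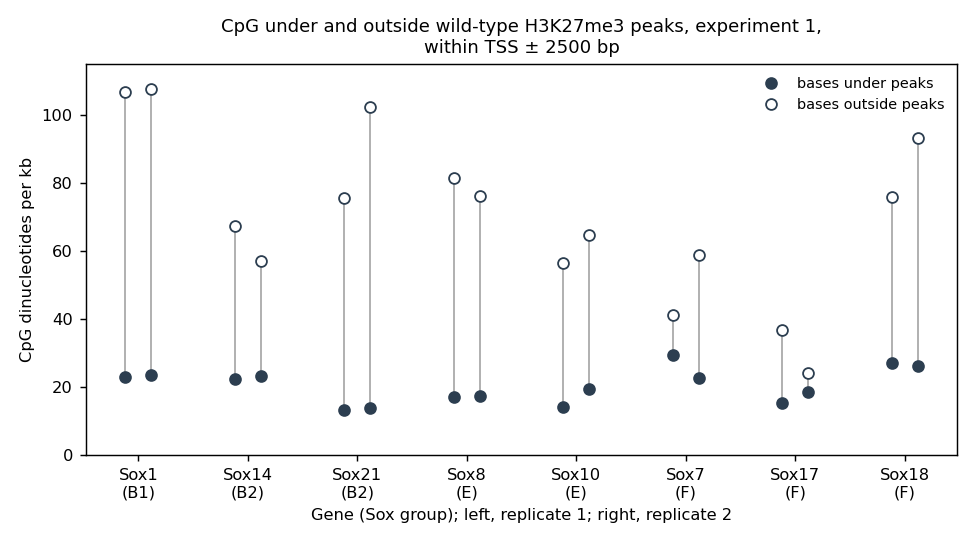
CpG per kb (y axis) under wild-type H3K27me3 peaks (filled) and outside them (open) within 2500 bp of the start of the 8 marked Sox genes (x axis), experiment 1. Each pair of joined points is 1 library, replicate 1 left and replicate 2 right, and the open point lies above the filled one in every pair.

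The cover was also compared within 10 kb of each start, a window of 20001 bp chosen after seeing the files, in which Sox1 could be included. Sox1 had 635 and 0 bp there in knockout libraries and 15774 and 15806 bp in wild-type libraries. Sox8 had 0 and 0 bp in the knockout and 15748 and 15751 bp in the wild type, so Sox1 and Sox8 had the most cover of the 10. Sox17 had 0 and 0 bp in the knockout and 3476 and 3624 bp in the wild type. Summed over the 10 genes, the wild-type libraries shared 77229 bp, or 93.6% of the cover of replicate 1 and 86.8% of that of replicate 2. At Sox17 they shared less, 52.1% of the cover of replicate 1, although its totals were close.

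Knockout peaks were found at Sox21 and Sox1, a share like that of other genes. In experiment 1 a promoter peak was found in at least 1 knockout library at 1 of the 9 genes, Sox21, and also at Sox1, against 10.6% of all promoters. Among promoters marked in the wild type, 92.4% had no knockout peak, as did 6 of the 7 marked annotated members, or 6 of 8 with Sox1. The Sox1 peak, in replicate 1, was 635 bp wide (chr8:12397778-12398412) and lay wholly under peaks of both wild-type libraries. Sox21 had 2 peaks within 10 kb in replicate 1 and 4 in replicate 2, of 268 to 1120 bp. The peak downstream from its start was found in both libraries, 2599 to 3134 bp from the start in replicate 1 and 2423 to 3147 bp in replicate 2. At Sox2 the nearest knockout peaks lay 12645 and 12383 bp downstream, where no wild-type peak was called.

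**Figure D4:**
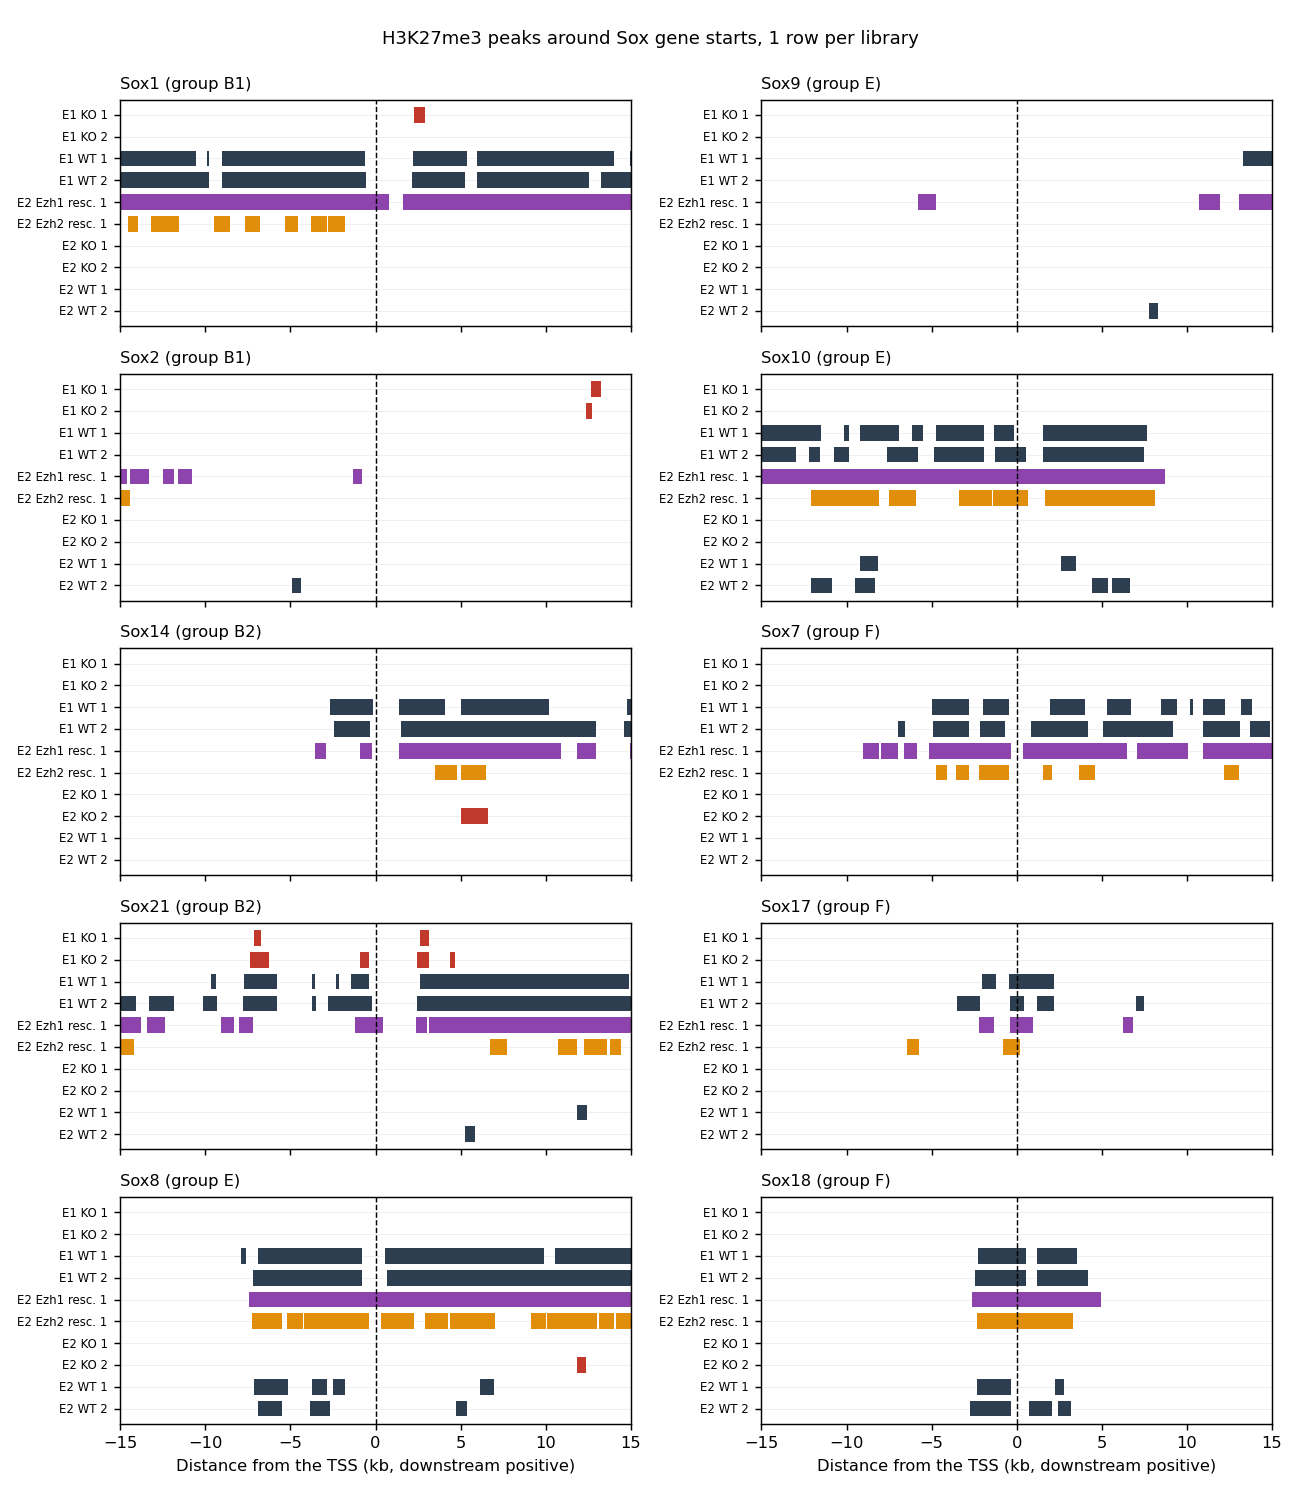
H3K27me3 peaks within 15 kb of the start of each Sox gene (x axis, kb from the start in the direction of the gene). Each row is 1 library (red, knockout; dark blue, wild type; purple, Ezh1 rescue; orange, Ezh2 rescue), and the dashed line is the start. Wild-type peaks of experiment 1 flank the start of Sox1, Sox8 and Sox7 and cross that of Sox17 and Sox18, and the Ezh1 rescue peaks cross the starts of 6 genes.

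Experiment 2 repeated the deletion with another antibody and platform, and peaks were far fewer in its wild type. Sox18 alone of the 9 annotated genes met the call at the promoter, against 3.03% of all promoters. It had 0 and 0 bp in the knockout and 2256 and 3501 bp in the wild type. Sox8 had 0 and 0 bp in the knockout and 700 and 0 bp in the wild type, so its groups overlapped, and the other 7 and Sox1 were at 0 in all 4 libraries. Without wild-type replicate 2 the count was 2, Sox8 and Sox18. Of the promoters marked in both wild-type libraries of experiment 1, 37.9% had a peak in at least 1 and 13.2% in both wild-type libraries of experiment 2. Antibody, sequencer, read length and least peak width all differed between the experiments and cannot be told apart. The narrowest peak was 150 bp in experiment 1 and 550 bp in experiment 2.

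Over the gene span, 3 of 9 genes were called lost in experiment 2, against 11.1% of all genes and 8.61% of those of like length. Sox8 had 0% in both knockout libraries and 16.2% and 12.5% in wild-type libraries. Sox10 had 0% in both knockout libraries and 4.34% and 10.5% in wild-type libraries. Sox18 had 0% in both knockout libraries and 21.6% and 37.7% in wild-type libraries. Without wild-type replicate 1 the count was 6, since replicate 2 alone had a peak in the spans of Sox2, Sox21 and Sox9, of 550, 600 and 550 bp. At Sox14 the order was turned: knockout replicate 2 had a peak of 1600 bp in the span (chr9:99770051-99771650), of which 1562 bp lay under both wild-type libraries of experiment 1, against 0 bp in both wild-type libraries of experiment 2. Any knockout peak in the span was found at 0.872% of genes.

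In the rescues the mark was found at most of these genes. A promoter peak was present at 8 of 9 in Ezh1-rescued iMEFs, against 28.2% of all promoters, and at 5 of 9 in Ezh2-rescued iMEFs, against 18.8%. Sox1 had one in both, which makes 9 of 10 and 6 of 10. Sox9 had none in either. Of promoters marked in both wild-type libraries of experiment 1, 90.8% had a peak in Ezh1-rescued iMEFs and 71.1% in Ezh2-rescued iMEFs, against 8 of 8 and 6 of 8 of the marked members. Each rescue was 1 library, so there is no replicate check of any difference. The knockout and Ezh1-rescued iMEFs were scaled in the study by the DNA recovered, and the lists do not show whether this reached the peaks.

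In group B, the Sox1 promoter had 4151 bp under peaks in Ezh1-rescued iMEFs and 682 bp in Ezh2-rescued iMEFs, against 0 bp in all knockout and wild-type libraries of that experiment. Sox14 had 1838 bp in Ezh1-rescued iMEFs and 0 in Ezh2-rescued iMEFs, and Sox21 1749 and 0. Sox2 had a single peak of 550 bp in Ezh1-rescued iMEFs (chr3:34547601-34548150), at the narrowest width that any list of experiment 2 holds, and 0 in Ezh2-rescued iMEFs. Sox2, Sox14 and Sox21 thus had a peak in Ezh1-rescued iMEFs and none in Ezh2-rescued iMEFs, as did 10.8% of all promoters. No promoter of group E or F did so. This split by group was not seen over the gene span. There Sox14 had 2800 bp and Sox21 1000 bp in Ezh2-rescued iMEFs. Sox9, of group E, had 263 bp in Ezh1-rescued and 0 bp in Ezh2-rescued iMEFs, and Sox2 had 550 and 0 bp.

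In group E, the Sox8 promoter had 5001 bp in Ezh1-rescued iMEFs, its whole length, and 4081 bp in Ezh2-rescued iMEFs. Sox10 had 5001 and 3901 bp, and Sox9 was at 0 in both. In group F, Sox18 had 5001 bp in Ezh1-rescued iMEFs and 4856 bp in Ezh2-rescued iMEFs, Sox7 4351 and 2300 bp, and Sox17 2200 and 1000 bp. Sox8, Sox10 and Sox18 were fully covered in Ezh1-rescued iMEFs, as were 4.56% of all promoters and 21.9% of those marked in both wild-type libraries of experiment 1.

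Ezh1-rescued iMEFs had more bp than Ezh2-rescued iMEFs at 8 of 9 promoters, against 26.9% of all promoters. Of the 6622 promoters with a peak in either rescue they had more at 90.8%, so the order at the Sox genes was that of most promoters. The Ezh1 rescue list covered more of the genome than any other, and its part in this order was not tested. The paper reports the opposite order for the amount of the mark. By western blot the global level was lower in the Ezh1 than in the Ezh2 rescue, and the Ezh2 rescue was similar to wild type. Its sequencing also gave a weaker distribution along the genome in the Ezh1 rescue. Covered bp is thus not a measure of how much of the mark was present. Median cover of the 8 marked members was 4251 bp in Ezh1-rescued iMEFs and 1650 bp in Ezh2-rescued iMEFs, against 3851 and 1094 bp over the marked promoters. Over the gene span, all 9 genes had a peak in Ezh1-rescued iMEFs, against 42.3% of genes, and 7 had one in Ezh2-rescued iMEFs, against 32.6%. Sox9 was the lowest, with 1.69% of its span in Ezh1-rescued iMEFs and 0% in Ezh2-rescued iMEFs, and Sox8 the highest, with 100% and 75.7%.

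Within 10 kb of the starts, 68.9% of the cover of Ezh1-rescued iMEFs and 78.3% of that of Ezh2-rescued iMEFs lay in bp that both wild-type libraries of experiment 1 covered. The Ezh1 rescue covered 93.3% and the other rescue 48.3% of those wild-type bp. The genes differed in this. The cover of Ezh1-rescued iMEFs lay outside the shared wild-type bp at Sox2 (550 bp) and Sox9 (1050 bp), which had none. Of the Ezh1 rescue cover, 29.6% lay inside at Sox17 and 45.2% at Sox7. In Ezh2-rescued iMEFs 9.12% of the wild-type bp was covered at Sox21 and 21.0% at Sox14. Of the 47590 bp covered in Ezh2-rescued iMEFs, 97.7% was also covered in Ezh1-rescued iMEFs, and this was 44.5% of the 104489 bp of Ezh1-rescued iMEFs. At Sox17 the Ezh1 rescue covered 45.8% of the wild-type bp and shared 35.3% of the Ezh2 rescue cover. The widest single peak at any of these promoters was in Ezh1-rescued iMEFs. It spanned 70800 bp over Sox8 (chr17:25644251-25715050), against 26999 bp in wild-type replicate 2 of experiment 1. At Sox21 the order was turned, with 1650 bp in Ezh1-rescued iMEFs against 13140 bp in that wild-type library, as it was at Sox14, with 9550 against 11444 bp. Against wild-type replicate 1 it was not turned at either gene, with 1020 bp at Sox21 and 2707 bp at Sox14. At Sox17 it was turned against replicate 1, with 1350 bp in Ezh1-rescued iMEFs against 2669 bp, but not against replicate 2, with 1345 bp. The wide Ezh1 rescue peak downstream of Sox21 began 3152 bp from the start, outside the promoter window.

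In Ezh1-rescued iMEFs, from experiment 2, peaks lay over the start at several genes with a gap there in the wild type of experiment 1. Antibody, sequencer, read length and least peak width differed between the experiments and cannot be told apart from the rescue in that comparison. The wild type of experiment 2 had no promoter peak at Sox1, Sox21 or Sox10, so it showed no gap to compare at these genes. At Sox18 it did, with the nearest peak 356 bp from the start in both wild-type libraries of experiment 2. Of the 250 bases before that start, 0 were covered in these libraries, against 250 in each rescue, of 1 library each. All 250 bases before the start were covered in Ezh1-rescued iMEFs at Sox1, Sox21, Sox8, Sox10, Sox17 and Sox18, and in Ezh2-rescued iMEFs at Sox10, Sox17 and Sox18. Sox1, shown above with 29 CpG in this stretch, had 250 bases covered in Ezh1-rescued iMEFs, 0 in Ezh2-rescued iMEFs and 0 in every other library. Sox7, with 28 CpG, had 0 in all 10 libraries. The start was under a peak at 6 of the 9 members with a promoter peak in Ezh1-rescued iMEFs and at 3 of 6 in Ezh2-rescued iMEFs, against 52.4% and 30.2% of all genes with one.

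Of the 10 other Sox genes, 5 had a promoter peak in both wild-type libraries of experiment 1, against 20.1% of all promoters. The same 5 were called lost, against 19.6%. Sox5, a cartilage factor of group D, had 0 and 0 bp in the knockout and 3876 and 3597 bp in the wild type. Sox6, of the same group, had 0 and 0 bp in the knockout and 3676 and 3355 bp in the wild type. Sox13 and Sox11 also had no knockout peak, with wild-type means of 2528.5 ± 583 and 1864 ± 289.9 bp (SD, n = 2). Sox30 had 266 and 0 bp in the knockout and 1044 and 2486 bp in the wild type. Sox3, Sox4, Sox12, Sox15 and Sry were at 0 bp in every library, so Sox3, the third gene of group B1, lacked the peak that Sox2 had in Ezh1-rescued iMEFs. In Ezh1-rescued iMEFs 3 of these genes had a promoter peak (Sox5 4251 bp, Sox13 4051 bp, Sox11 3127 bp), and in Ezh2-rescued iMEFs 1 did (Sox13, 1800 bp). The shares over all promoters were 28.2% and 18.8%. Sox6 and Sox30 had none in either rescue, unlike the 8 marked members, each of which had one in Ezh1-rescued iMEFs.

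Genes that act in the same tissues as each Sox group were described from lists. Of all protein-coding promoters, 19.6% were lost and 20.1% were marked in both wild-type libraries of experiment 1. A peak was found at 28.2% of them in Ezh1-rescued iMEFs and at 18.8% in Ezh2-rescued iMEFs. Of 15 neural genes, the setting of group B, 12 were lost in experiment 1 and 12 had a promoter peak in both wild-type libraries. The widest were at Pax6, an eye and forebrain regulator, and Six3, a forebrain factor, each with 0 bp in both knockout libraries and the full 5001 bp in both wild-type libraries. They were followed by Otx2 and Olig2. Of these 15 genes 3 had a knockout peak in experiment 1. At Zic1 and Zic2 it was found in the knockout only, with 1071 and 864 bp at Zic1 and 1071 and 324 bp at Zic2, against 0 bp in both wild-type libraries, opposite to the other changes of the list. The third was Pou3f3. The list had 12 genes with a peak in Ezh1-rescued iMEFs and 7 in Ezh2-rescued iMEFs. Pax6 had 5001 bp in Ezh1-rescued iMEFs and 0 bp in Ezh2-rescued iMEFs. Olig2, a regulator of oligodendrocytes, had 0 and 3556 bp in the knockout libraries of experiment 2, against 950 and 600 bp in its wild type.

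Of 20 genes of the neural crest, glia and cartilage, the setting of group E, 11 were lost and 12 were marked in both wild-type libraries. The shares over all promoters were 19.6% and 20.1%. Pax3, Acan and Tfap2b (Tcfap2b in the annotation) were among those with wide mean cover. Acan and Col2a1 encode cartilage matrix proteins and are known targets of Sox9. Acan had 0 and 0 bp in the knockout and 4149 and 4079 bp in the wild type, and Col2a1 0 and 0 bp in the knockout and 4108 and 3896 bp in the wild type. Both were thus marked, whereas Sox9 was not. Foxd3, a neural crest factor, was marked but not called lost, with 1168 and 2215 bp in the knockout and 1603 and 2133 bp in the wild type. The rescues had promoter peaks at 10 (Ezh1) and 7 (Ezh2) of these 20 genes, against 28.2% and 18.8% of all promoters.

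Of 20 genes of the endoderm and endothelium, the setting of group F, 13 were lost and 14 were marked in both wild-type libraries. The shares over all promoters were 19.6% and 20.1%. A peak was present at 14 in Ezh1-rescued iMEFs and at 12 in Ezh2-rescued iMEFs, against 28.2% and 18.8% of all promoters. Etv2, which specifies endothelial and blood progenitors, had 0 bp in both knockout libraries and 5001 bp in both wild-type libraries. Prox1, a lymphatic regulator known as a target of Sox18, had 0 and 0 bp in the knockout and 5001 and 4024 bp in the wild type, but 750 bp in Ezh1-rescued iMEFs and 659 bp in Ezh2-rescued iMEFs, where Sox18 was almost fully covered. Tal1 and Gata4 followed. Median wild-type cover was 2573.5 bp for this list, 2570 bp for the neural list and 2588.5 bp for the neural crest list, against 0 bp over all genes.

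The genes elsewhere in the genome whose promoter cover over the 10 libraries was most like that of a Sox gene were found by the smallest summed absolute difference in bp. For Sox18 it was Tbc1d16, with a summed difference of 1227 bp, the largest of the 9 best matches. For Sox8 it was Lyzl4, with 669 bp, and for Sox14 Coch, with 677 bp. For Sox10 it was Aatk (684 bp), for Sox1 Drd5 (692 bp), for Sox7 Wnt10a (720 bp), for Sox17 Atp2a1 (778 bp) and for Sox21 Odf4 (903 bp). The cover of Sox2, a single peak in Ezh1-rescued iMEFs, was equalled by that of other genes, such as Il16. Sox9, with no promoter peak in any library, was not matched.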

How the data were processed

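H3K27me3 peak lists of 10 libraries were analysed; the 2 input samples have no list here. The authors aligned reads to mm9, removed duplicates, down-sampled, scaled some conditions and called peaks per sample against input; MACS2 2.0.10 and HOMER 3.17, with Bowtie 0.12.8 and Bowtie2 2.1.0 as aligners, stand in the submitters' processing notes. The deposited lists hold chromosome, start and end, with no score, and depth is unknown. Peaks in experiment 2 follow a 50-bp grid and are at least 550 bp wide, so narrower marks are not seen there.

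Duplicate peaks were merged, mitochondrial peaks left out, and bp under peaks counted (Python 3.11.15, NumPy 2.4.6, matplotlib 3.10.9) over 22367 protein-coding genes of GENCODE M1. A peak meant at least 1 bp in the window. The counting gave 0 mismatches in 3000 simulated windows. Knockout and wild type were compared within each experiment by an exact permutation test (SciPy 1.17.1). RefSeq promoters (GRCm38.p6) of 5 members matched mm9. They start at the annotated TSS or within 74 bp of it, beside Sox1. Promoter sequences were read from mm9.

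The members and lists were chosen with earlier results of these data known. All members and other Sox genes are named. Up to 4 genes per list are named by wild-type cover, and the most alike gene per member. Foxd3, Zic1, Zic2, Pou3f3, Col2a1, Col1a1, Fn1 and Vim were named after their values were seen. The 20001-bp window, the placing of Sox1 and the 550-bp minimum were chosen after seeing the data. Alternatives changed the window, the start site, the least bp, the peak width, the joining of peaks and the replicates. Some list genes were matched through older symbols. Post-rescue and overexpression conditions were not analysed here.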

Additional observations from a re-analysis of the deposited data

How the results depend on the processing

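The count of 7 genes lost in experiment 1 held under every alternative for the promoter and the span, except that Sox1 added at the promoter and Sox9 added with 10 kb of flank made it 8. Leaving out a replicate, or comparing libraries of the same replicate number (the replicate block), could only keep or raise a count. The call already requires every knockout library to lie below every wild-type library, so these settings are no check on it. The counts of experiment 2 moved, and the cause was not tested. At the promoter the count was 3 instead of 1 (Sox8, Sox10, Sox18) with 5000 bp on either side, and 1 to 2 when single replicates were left out. In the span it was 1 instead of 3 with the gene span alone (Sox10) and 1 with peaks of at least 1000 bp (Sox18), and 3 to 6 when single replicates were left out. Of 438 differences of knockout minus wild type for single genes, 0 turned in direction. A difference of 0 in the main setting, as at Sox2 and Sox9 in experiment 1, could not turn by this rule. With 10 kb of flank the span of Sox9 went from 0 to -1208.5 bp. Of 124 between the rescues, 0 turned and 39 moved. Replicate numbers are shared between groups, but replicate differences did not go together (correlations of 0.033 in experiment 1 and -0.028 in experiment 2, over 22367 promoters). With the replicate block the counts were 7 and 7 in experiment 1 and 1 and 3 in experiment 2, as without it, and the smallest p is 0.5. The lists hold no heights, so a loss of signal within a called peak cannot be seen.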
